A study of Drosophila melanogaster with 2 samples.

Results

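The sugar-sensing transcription factor genes of Drosophila melanogaster described here are Mondo, bigmax, sug (sugarbabe) and cbt (cabut), 4 of the 13945 protein-coding genes on the 6 arms examined. They were selected on the binding signal itself, because Mondo and cbt hold very high Hr78 peaks. Their number of peaks, signals and ranks are therefore a description and no test was made of them. A peak summit, the position of highest signal in a bound region, was given to a gene when it lay within the gene's span extended by 2 kb on each side, or when the gene's start site was the nearest of any protein-coding gene. By that rule the 4 genes held 15 of the 5723 summits of the reproducible, or optimal, list.

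The data were ChIP-seq of Hr78 in whole embryos of mixed sex, aged 8 to 16 h, from the strain Hr78-GFP. All embryos stably carried Hr78 with eGFP fused to its C terminus. The promoter of that fusion is not given in the sources used here. Chromatin was sonicated to 200 to 800 bp and precipitated with an anti-GFP antibody, in 1 group of 2 biological replicates numbered 1 and 3. The replicates came from the same donor line, so differences between them measure the spread between these libraries. In whole embryos, binding in a few cells and weak binding in many cannot be told apart. Each replicate and the pool of both had a list of 30000 peaks, and the optimal list held the peaks with the highest signals of the pooled list. Signal is the peak caller's value against a control, so it is read within a list, or between lists by rank, where rank 1 is the highest. No file holds read numbers, so sequencing depth is unknown.

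Mondo and bigmax are basic helix-loop-helix leucine zipper proteins that pair to bind DNA when sugar phosphates accumulate, as their mammalian counterparts ChREBP and Mlx do. They bind the carbohydrate response element, a pair of E-boxes with a short spacer, at genes of glycolysis and fat synthesis. cbt, a Krüppel-like factor, and sug, a zinc finger protein of the GLI-similar kind, are 2 of the transcription factor genes that the Mondo-bigmax pair switches on after feeding. Hr78 is a nuclear receptor related to the vertebrate testicular orphan receptors, whose family recognises the half-site AGGTCA.

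The sequences under and around the summits of the sensor Mondo, its partner bigmax and their target cbt show which of the searched motifs lie there. Capitals mark, on either strand, RGKTCA (the half-site with A or G for R and G or T for K, which includes AGGTCA), the E-box CACGTG, and WGATAR, the motif of GATA factors. All are the reference sequence of release 6 (dm6), 5′ to 3′, on the plus strand except the first. The Mondo leader site, 30 bases of the minus strand at chr2L:21309774-21309803 in the 5′ UTR, holds AGGTCA 13 bp from the highest Mondo summit. The 242 bases between the divergent start sites of bigmax and Hmu are at chr3R:27288527-27288768. Both capitalised stretches in that gap lie more than 50 bp from the bigmax summit, and none of the searched motifs lay within 50 bp of it. The highest cbt summits, 1431 bp and 347 bp upstream, are at chr2L:481069-481169 and chr2L:479985-480085. The summits 4857 and 5058 bp upstream are at chr2L:484495-484595 and chr2L:484696-484796, and a weaker summit 604 bp upstream is at chr2L:480242-480342.
Mondo leader site: gcgctgagccagAGGTCAaaagtgcaaaca
bigmax-Hmu gap: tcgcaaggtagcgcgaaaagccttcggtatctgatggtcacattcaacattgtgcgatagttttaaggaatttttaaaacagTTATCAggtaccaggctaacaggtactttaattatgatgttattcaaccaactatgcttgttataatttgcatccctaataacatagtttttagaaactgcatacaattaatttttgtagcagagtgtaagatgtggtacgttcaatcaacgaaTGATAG
cbt summit 1431 bp upstream: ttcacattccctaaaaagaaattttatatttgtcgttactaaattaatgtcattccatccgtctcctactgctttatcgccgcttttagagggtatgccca
cbt summit 347 bp upstream: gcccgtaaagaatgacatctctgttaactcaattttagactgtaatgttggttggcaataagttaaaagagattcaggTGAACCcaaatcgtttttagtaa
cbt weaker summit 604 bp upstream: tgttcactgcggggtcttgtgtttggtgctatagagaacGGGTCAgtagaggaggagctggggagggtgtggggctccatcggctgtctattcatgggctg
cbt summit 4857 bp upstream: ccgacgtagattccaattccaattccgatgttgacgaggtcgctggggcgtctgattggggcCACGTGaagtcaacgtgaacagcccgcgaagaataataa
cbt summit 5058 bp upstream: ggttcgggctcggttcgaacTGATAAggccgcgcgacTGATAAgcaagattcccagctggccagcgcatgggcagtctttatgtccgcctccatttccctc

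The window 4857 bp upstream of cbt also held a close match to the carbohydrate response element. The element searched was 2 CACGTG with 5 bases between them. At 2L:484557-484573, 12 to 28 bp from the summit, 17 bases matched it on the plus strand with 1 mismatch in the 12 E-box bases. That mismatch is C12A, with positions counted from 1 at the 5′ end of the element and the E-boxes in capitals.
paired E-box beside cbt: CACGTGaagtcAACGTG
Without a mismatch the element lay within 50 bp of none of the 5723 optimal summits. With 1 mismatch allowed, a setting chosen after the sequence was seen, 1 summit window in 5723 (0.0175%) held it, the one beside cbt. With 2 mismatches allowed the share was 0.262%. A match describes these letters, and binding of Mondo or bigmax there was not measured.

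Mondo, the sugar sensor, held 3 optimal summits in its span of 23973 bp on the minus strand (2L:21286078-21310050, FBgn0032940). Its annotation has 3 start sites, at 21310050, 21309489 and 21304109. The highest summit was at 2L:21309804, 246 bp downstream of the outermost start, in the 5′ UTR. It had a signal of 4237 in the optimal list, 2453 in replicate 1 and 1813 in replicate 3. Its ranks were 29, 26 and 33 in those lists, so the replicates placed it almost alike. The bound region was 1409 bp wide, 126th of the 4939 distinct optimal regions by width, against a median of 514 bp. The divergent gene crc, which encodes the fly ATF4 of the amino acid stress response, starts 816 bp from the outermost Mondo start, and its window holds the same summit.

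The other Mondo summits were more than 10 times weaker, and the start site nearest to each was an inner one. The summit at 2L:21303838, in a 5′ UTR 271 bp downstream of the start at 21304109, had signals of 325 in the optimal list, 185 in replicate 1 and 156 in replicate 3. In an intron, the summit at 2L:21308226, 1263 bp downstream of the start at 21309489, had 336, 175 and 157. Both ranked between 4253 and 5086 in the optimal and replicate lists, among the lower signals of the optimal list. The pooled list added 4 weaker summits, with signals of 260, 140, 75.4 and 54.5. The first lay 49 bp from the start at 21304109, and the summit of 75.4 was matched in neither replicate within 100 bp.

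bigmax, the partner of Mondo, had 1 optimal summit, in the 242 bp between its start and that of Hmu, which encodes hemomucin. The gene spans 1161 bp on the minus strand (3R:27287366-27288526, FBgn0039509), and the summit at 3R:27288667 lay 141 bp upstream of its start. Hmu's start was nearer, at 102 bp, so bigmax held the summit by its window alone. Its signal was 753 in the optimal list, 483 in replicate 1 and 258 in replicate 3, with ranks of 1164, 936 and 1901. It was above the median optimal signal of 441 but far below the best summits of Mondo and cbt. On the Hmu side, weaker pooled summits at 27288873 in its 5′ UTR and 27289873 in its intron had signals of 127 and 204.

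cbt, the Krüppel-like target, had the highest signals of the 4 genes, and all 5 of its optimal summits lay upstream of its single start. The gene spans 3243 bp on the minus strand (2L:476446-479688, FBgn0043364) and sits inside ush, on the opposite strand, which encodes a cofactor of GATA factors. Each of the 5 summits is also in an intron of ush. The summit at 2L:481119, 1431 bp upstream, had a signal of 5806 in the optimal list, 2986 in replicate 1 and 2799 in replicate 3, with ranks of 12, 16 and 11. The summit at 2L:480035, 347 bp upstream, had 5058, 2623 and 2463, with ranks of 18, 24 and 15. The pair thus stood among the 25 highest summits of each list. Together with the summit at 2L:482498, 2810 bp upstream, with a signal of 336, they shared a region of 4440 bp, the 4th widest of 4939.

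A more distant pair at cbt lay 4857 and 5058 bp upstream, in a region of 1746 bp. The summit at 2L:484545 had a signal of 1525 in the optimal list, 830 in replicate 1 and 696 in replicate 3. At 2L:484746 the signals were 1018, 427 and 428. Neither replicate reversed their order. These and the summit 2810 bp upstream were outside the 2 kb window and belonged to cbt by nearest start site, since no start site of ush was nearer. Among the weaker pooled summits matched in both replicates, the one at 480292 differed most between them. Its match in replicate 1, 7 bp away, had a signal of 95.3 (rank 11123). Its match in replicate 3, 52 bp away, had 730 (rank 255). Whether both matches are the same feature was not tested. The pooled signal at 480292, 250, was below the lowest optimal signal, 271.7. Another weaker summit, at 478925 in the 5′ UTR of cbt with a pooled signal of 237, was matched in replicate 3 alone.

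**Figure D1:**
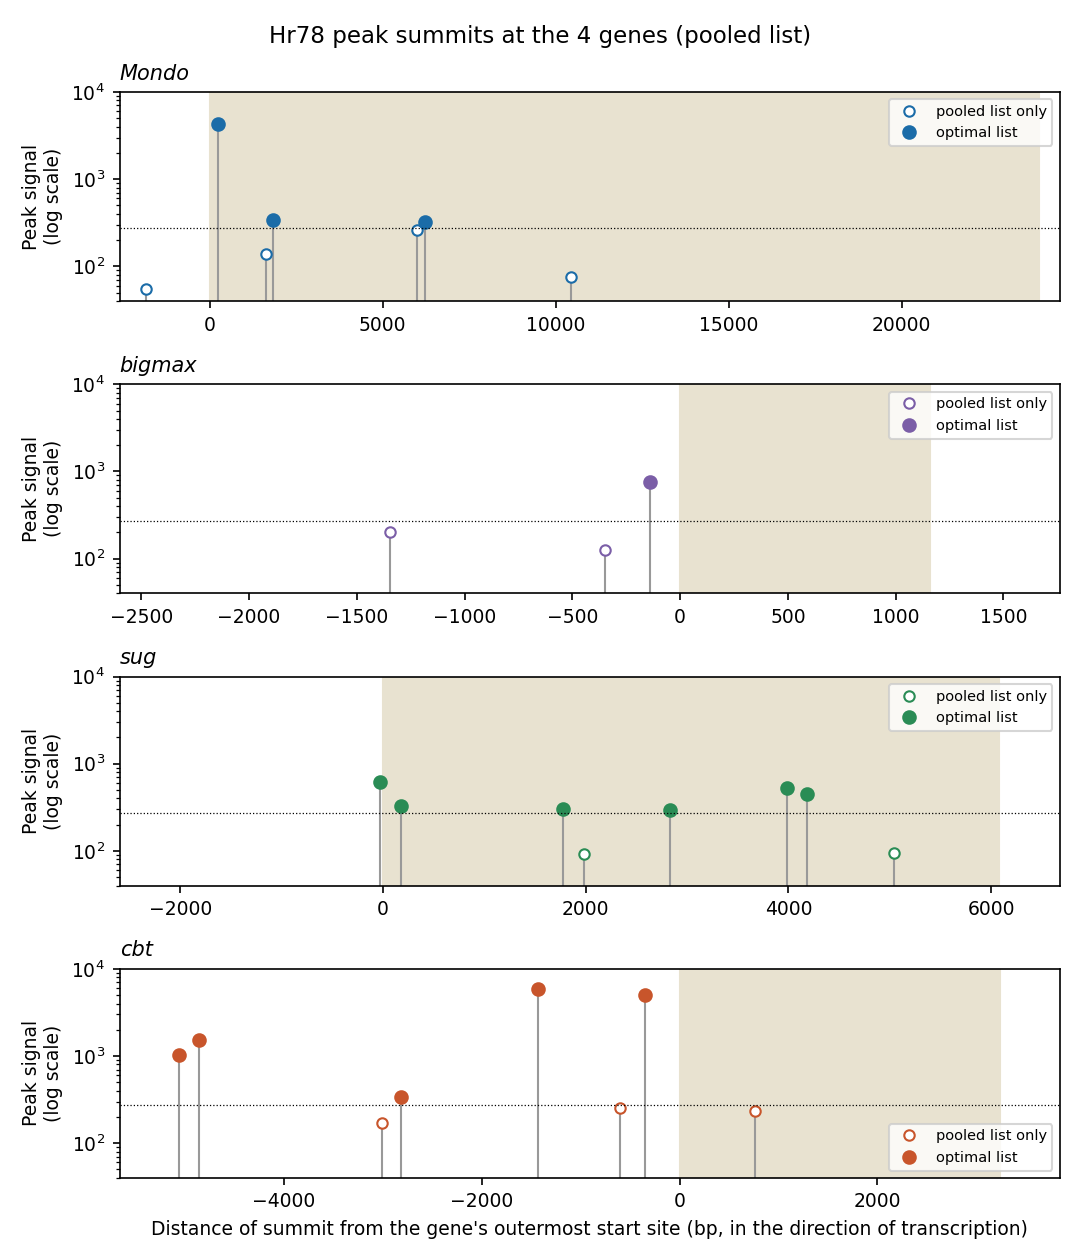
Signal of each pooled-list summit (log scale) against its distance in bp from the gene's outermost start site in the direction of transcription, with filled points for optimal summits, open points for the weaker ones, shading for the gene span and a dotted line at the lowest optimal signal, 271.7. The high points sit just inside the start of Mondo and upstream of cbt, while the points of sug spread over the start and the intron at 624 or less.

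sug, the GLI-similar target, had the most optimal summits of the 4 genes, 6, and none was strong. The gene spans 6078 bp on the plus strand (2R:12924567-12930644, FBgn0033782), with start sites at 12924567 and 12928860. Around the first start, the summit 29 bp upstream had a signal of 624 in the optimal list, 343 in replicate 1 and 295 in replicate 3. That position is also in the 3′ UTR of CG13319. The summit 175 bp downstream, in the 5′ UTR of sug, had 329, 241 and 139. The start site thus carried a stronger and a weaker summit in all 3 lists. Of the 7846 pairs of neighbouring pooled summits 150 to 250 bp apart, 97.8% had this order, with the higher signal at the smaller coordinate.

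Ahead of the second start of sug lay another pair, in an intron. The summit 106 bp upstream of that start had signals of 449 in the optimal list, 289 in replicate 1 and 160 in replicate 3. The summit 308 bp upstream had 520 in the optimal list and 260 in replicate 3, and it was the single one of the 15 with no replicate 1 summit within 100 bp. Elsewhere in its introns, the summits 1779 and 2828 bp downstream of the first start had optimal signals of 300 and 295. The former ranked 9233 in replicate 1 and 3102 in replicate 3, the latter 5587 and 4938. These 2 were the members' summits just inside the optimal list, and the 3 just outside it were those of Mondo and cbt with signals of 260, 250 and 237.

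Of the 15 optimal summits, 14 had a summit within 100 bp in both replicates, and 15 in replicate 3. The median offset of the replicate summits was 29 bp and the largest 98 bp. Over the whole optimal list, 5374 of 5723 summits (93.9%) were matched in both replicates by the same distance. The 4 genes thus matched at about the rate of the list as a whole. Another 11 summits of the pooled list fell below the optimal list, with signals from 54.5 to 260, of which 8 were matched in both replicates. Over all pooled summits below the optimal list, 12517 of 24277 (51.6%) were matched.

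**Figure D2:**
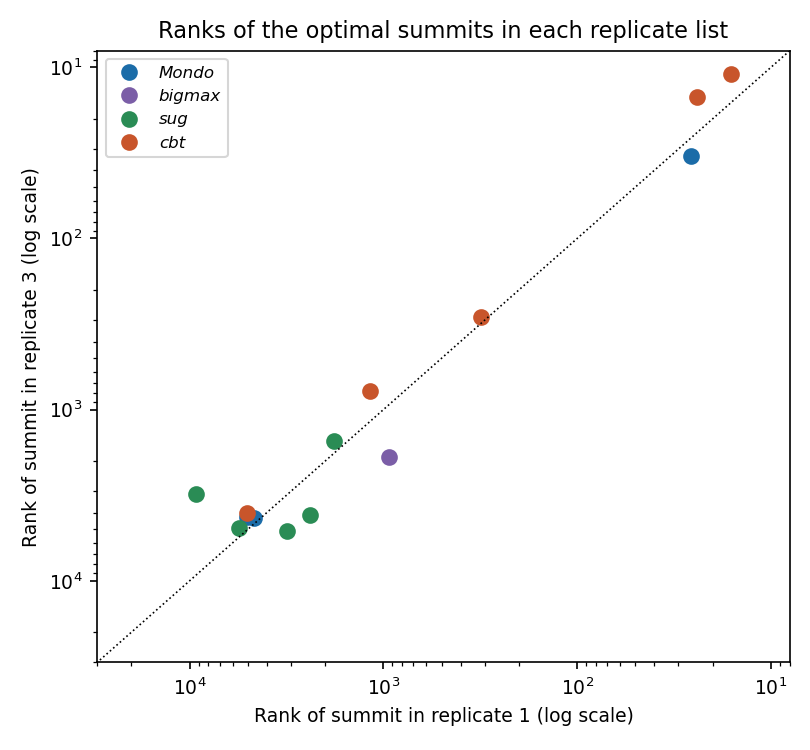
Rank of each of the 14 optimal summits matched in both replicates, in replicate 1 (horizontal) and replicate 3 (vertical), both on log scales with rank 1 towards the upper right and a dotted line for equal ranks. The high summits of cbt and Mondo lie close to the line, and the widest gap is a sug summit ranked 9233 in replicate 1 and 3102 in replicate 3.

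All 4 genes had at least 1 optimal summit, against 31.3% of protein-coding genes, and all 4 had one within 500 bp of a start site, against 13.0%. Both sug and cbt had 5 or more summits, against 2.35% of genes. With 1 summit counted per bound region, sug had 4 and cbt 2. Since the genes were picked on these peaks, nothing is read from these counts. Among the 4361 genes with an optimal summit, ranked by their highest signal, cbt was 21st, Mondo 52nd, bigmax 1442nd and sug 1907th. In replicate 1 the ranks were 30, 45, 1175 and 2012, and in replicate 3 they were 19, 59, 2198 and 1802. cbt and Mondo kept their order in each list, whereas bigmax ranked above sug in the optimal list and replicate 1 and below it in replicate 3. The order of bigmax and sug thus differed between the replicates. The median highest signal of the genes with a summit was 558, so bigmax and sug lay a little above it.

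The share of genes with a summit was higher for longer spans. Among genes whose span was within 1.5 times that of the member, 62.8% of 775 had an optimal summit for Mondo, 22.0% of 4034 for bigmax, 39.3% of 2065 for sug and 30.1% of 3424 for cbt. The median number of optimal summits in those groups was 1 for Mondo and 0 for the other members.

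**Figure D3:**
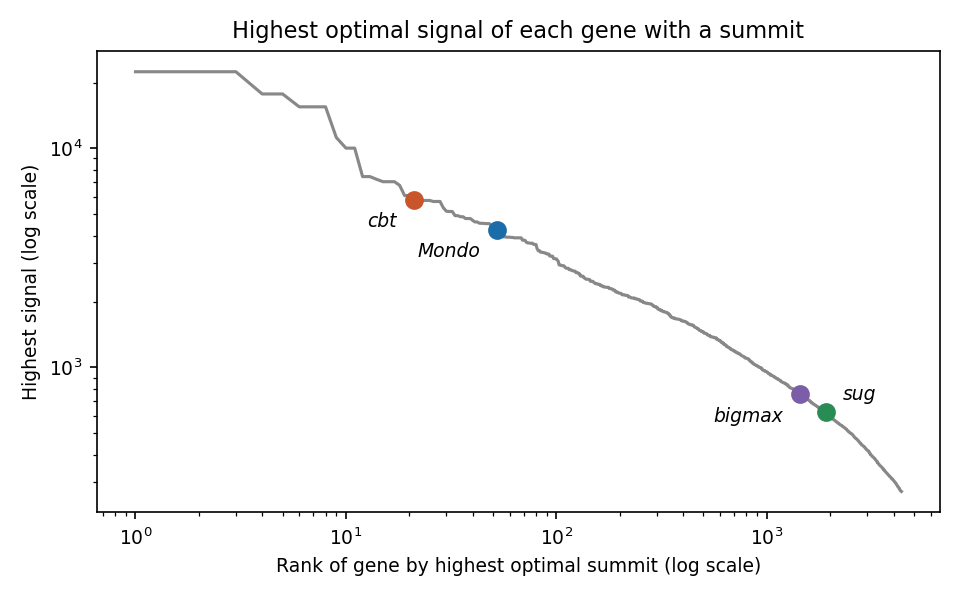
Highest optimal signal (log scale) of each of the 4361 genes with a summit, drawn as a line against the gene's rank (log scale), with the 4 genes as points. cbt and Mondo lie on the left part of the line at 5806 and 4237, and bigmax and sug further right at 753 and 624.

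By highest signal in the pooled and both replicate lists, the genes nearest to each member were neighbours that share its summit. They were crc for Mondo, CG3368 and Hmu for bigmax, CG13319 for sug and ush for cbt, each at a distance of 0 on the log10 scale. Next to Mondo came CG2991 and CG3104, tied with RpS21 at the same values, with 3906, 2238 and 1714 in the pooled, replicate 1 and replicate 3 lists. For cbt they were CG1750 and mRpL32, tied with qless, with 5789, 3115 and 2702. Near sug were Ac13E (625, 346 and 291) and pAbp (619, 339 and 294), and near bigmax CG32137 (749, 498 and 248). Likeness here was measured over 3 lists from the same 2 replicates.

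Motifs were counted within 50 bp of each summit, on either strand. AGGTCA was in 1 of the 15 windows, that of the highest Mondo summit, against 574 of all 5723 optimal windows. RGKTCA was in 3, against 30.3%. They were the Mondo window, the cbt window 347 bp upstream, where GGTTCA lay 28 bp from the summit, and the sug window 1779 bp downstream. The highest summit of the 4 genes, 1431 bp upstream of cbt, held none of RGKTCA, the E-box or WGATAR, and of the motifs searched it held CGATA, 24 bp from the summit. A direct repeat of RGKTCA with a spacer of 1 base was in none of the 15, against 1.36%. Of the 11 windows of weaker pooled summits, 5 held RGKTCA, and in the window at cbt 480292 GGGTCA lay 6 bp from the summit. The share over all weaker pooled windows was not counted, so nothing is read from the 5.

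WGATAR was in 8 of the 15 windows, against 24.2% of all, and 5 of those 8 were at sug. Of the others, 2 were at Mondo, in its weaker windows, and 1 at cbt, where 2 copies lay 5058 bp upstream. The E-box CACGTG was in 1 window, 4857 bp upstream of cbt, against 1.59%. CGATA, which BEAF-32 binds at insulators, was in 3 windows against 14.2%. CACCC, the core of the box that Krüppel-like and Sp factors bind, was in 3 against 12.4%, all at sug. Motifs can overlap, and AGGTCA is included in RGKTCA. Base composition varied with the gene. The windows of sug had 52.5 to 69.3% G and C, the bigmax window had 29.7%, and the median of all optimal windows was 42.6%. Whether composition accounts for a motif count was not tested.

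**Figure D4:**
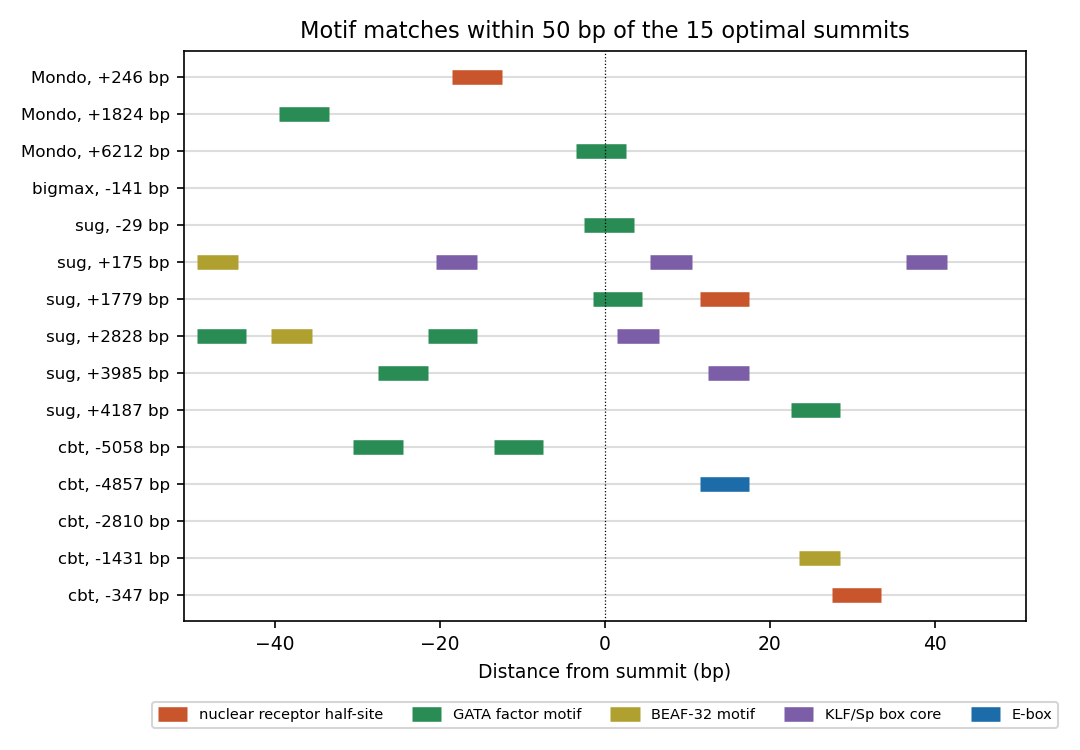
Motif matches (coloured bars, to scale) within 50 bp of each of the 15 optimal summits, with each line named by gene and by distance of the summit from the outermost start site, and distance from the summit in bp of the plus strand on the horizontal axis. GATA motif bars recur in 5 of the 6 sug lines, the E-box is at 1 cbt summit, and half-site bars are in 3 lines.

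Basic helix-loop-helix zipper relatives of Mondo and bigmax had optimal summits at 4 of 6 genes (66.7%), again against 31.3% of all genes. For this and the other lists, all genes were not matched to the list by span, with which the share varied. Mnt, the repressor partner of Max, had 14 optimal summits with a highest signal of 3093, Max itself had 1628, crp 941 and Myc 543. SREBP and Usf, the others of the list, had no optimal or pooled summit and are named after their values were seen. By highest summit in the replicate lists, SREBP ranked 1401st among genes in replicate 1 and 7787th in replicate 3. Usf had no summit in either replicate list. Zinc finger relatives of sug had 1 of 4, opa at a signal of 276, near the lowest optimal value. Krüppel-like and Sp relatives of cbt had 5 of 9 (55.6%). CG42741 was the highest with 1577, although the nearest start of that summit was CG9896, and luna had 651, dar1 595 and Sp1 425. None of these relatives reached the signal of Mondo or cbt. The lists were chosen with results of these data known.

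Sugar-responsive metabolic genes, which Mondo and bigmax are known to act on in feeding flies, had optimal summits at 15 of 20 (75.0%), against 31.3% of all protein-coding genes. The list's median was 2 summits per gene, against 0 over all protein-coding genes. Its median highest signal, over the 15 genes with a summit, was 1168, against 558 over all genes with one. The strongest were Gpdh1, which encodes glycerol-3-phosphate dehydrogenase, with 3362, AcCoAS, which makes acetyl-CoA from acetate, with 2838, the fatty acid desaturase gene Desat1 with 2473, and Aldh-III with 1919. The summit counted for AcCoAS was nearest to the start of ppl, and that of Desat1 to CG18549. Likewise, the highest summit of FASN2 was nearest to the start of CG17261, and that of Hex-C to mRpL41. The amylase family genes Amy-p, Amy-d and Amyrel, and tobi and Pfrx, had no optimal summit, while Treh, which encodes the trehalose-splitting enzyme, had 7 with a highest signal of 1168. These genes are named after their values were seen. Within 50 bp of the highest summit of each of the 15 genes, AGGTCA was in 6 windows, RGKTCA in 9 and CACGTG in 0. Over all 5723 optimal windows the motifs were in 574 (10%), 30.3% and 1.59%. Those windows include weaker summits, whereas the 15 are each the highest of a gene, so the 2 sets are unlike. The shares over the highest summits of all bound genes were not counted, so nothing is read from the difference, and no test was made of it.

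Gluconeogenesis and hormone genes, tied to cbt and sug in flies, had optimal summits at 5 of 13 (38.5%), near the 31.3% of all genes. Pepck1 and Pepck2, neighbouring genes of phosphoenolpyruvate carboxykinase that cbt is known to repress, shared a summit with a signal of 1201. The fructose-1,6-bisphosphatase gene fbp had 616, and daw, an activin-like ligand, had 328. The insulin-like peptide genes Ilp2, Ilp3, Ilp5 and Ilp6, and Akh and its receptor gene AkhR, had no optimal summit, and these too are named after their values were seen. In the pooled list, 9 of these 13 genes and 16 of the 20 metabolic genes had a summit, against 53.4% of all genes.

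**Figure D5:**
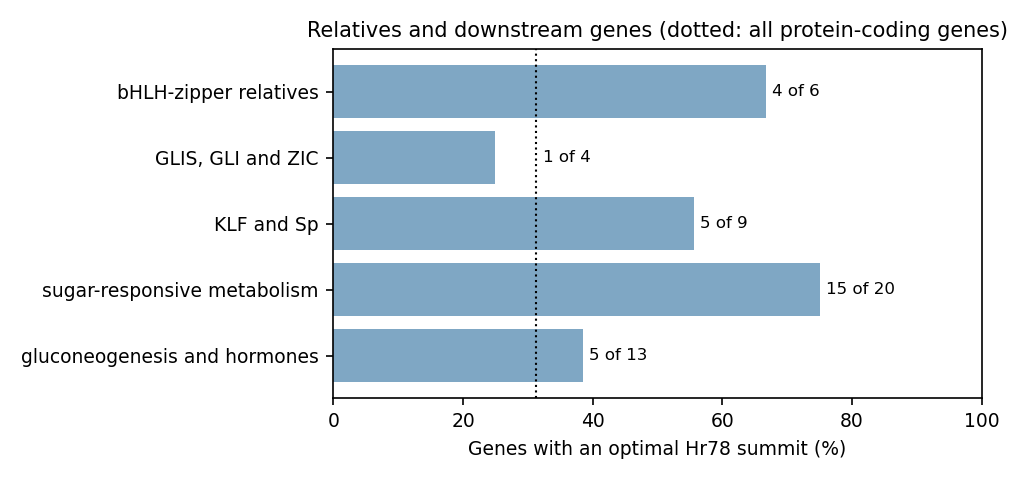
Percentage of genes with an optimal Hr78 summit in each list (bars from 0), with the number of genes beside each bar and a dotted line at 31.3%, the share of all protein-coding genes. The bar of sugar-responsive metabolism reaches 75.0% and that of the zinc finger relatives of sug, 1 of 4 genes, ends left of the line.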

How the data were processed

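The authors called peaks on each replicate and on both together against a control alignment, and thresholded the optimal list on the irreproducible discovery rate, per their deposited notes. For aligner, caller and threshold, the sources used here give no name or value. The deposited signal is the caller's value and its scale differs between lists. The q-value, deposited by the authors as −log10 q, had a single value of 4.25 in the optimal list and was not used. Depth is unknown, which limits precision to the spread between replicates.

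Positions are dm6, per the labels, 1-based, and were compared with release 6 of the genome (RefSeq) and Ensembl annotation release 115 (BDGP 6.54): no peak lay beyond an arm's end, and the spans of the 4 genes were equal in both annotations. Gene windows extended 2 kb. A replicate summit within 100 bp counted as the same. Motif windows reached 50 bp to each side, and promoter and protein tables were not used here. Members and lists were chosen with earlier results of these data known. Named genes were the members and their neighbours, and up to 4 bound genes per list by signal. The 3 genes nearest each member by signal were also named, with ties in alphabetical order. List genes without an optimal summit, Treh, FASN2, Hex-C and tied genes were added after their values were seen. In the lists, HLH106 was matched as SREBP, CG9895 is CG42741 and was counted once, and iec had no match. Summit assignment and motif search were tested on simulated data. Python 3.11.15, numpy 2.4.6, pandas 2.3.3 and matplotlib 3.10.9 were used. No test was made. Alternatives changed the window, list, summit distance and motif width, or left out a replicate.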

Additional observations from a re-analysis of the deposited data

How the results depend on the processing

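Of 145 alternative values for 29 results, 111 stayed near the main value and 34 moved. Near meant within 1.5 times for counts and shares, and within 1 SD of the 2 replicates' ranks for gene ranks. Changes of direction were not scored. With optimal summits above the list's median signal, the members kept 9 of 15 summits and 20.4% of genes had one, and with nearest start sites alone 20.3% had one. Nearest start sites alone gave gene ranks of 27 for Mondo, 1157 for sug and 11 for cbt, and left bigmax with 0 summits. A 5 kb extension gave ranks of 76, 2794 and 29 for those 3 genes, and a 1 kb extension 1627 for sug. Leaving out each replicate in turn gave ranks from 1175 to 2198 for bigmax, from 19 to 30 for cbt, and from 0 to 1 bound zinc finger relatives of sug. In the pooled list, where 53.4% of all genes had a summit, those relatives numbered 3 of 4, and gluconeogenesis and hormone genes 9 of 13. At cbt, 8 summits were counted without replicate 1, and 2 by the window alone or with 1 summit per bound region. Counted 1 per region, the members had 10 summits in place of 15. With summits matched within 50 bp, a distance chosen after seeing the data, 7 of 15 were in both replicates. The share of all optimal summits matched within 50 bp was not counted, so the 7 cannot be set against the whole list. Mismatches in the paired E-box were also chosen after seeing the data. Within 100 bp on each side, E-boxes were in 2 of the 15 windows, against 3.11% of all. At that width CGATA was in 7 against 26.2%, RGKTCA in 5 against 46.5% and AGGTCA in 2 against 15.7%. Within 25 bp on each side, CGATA was in 0 against 7.16% and WGATAR in 5 against 13.2%. No paired analysis was possible because there is 1 group.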

Other observations

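Pairs of summits about 200 bp apart were present at the 4 genes, as they were throughout the pooled list. The pooled list held 8 pairs with gaps of 199 to 222 bp, 3 of them with both summits in the optimal list, and in 8 of 8 the stronger summit was the one with the smaller plus-strand position. Over all 7846 pairs 150 to 250 bp apart in the pooled list, 7673 (97.8%) had that order too. In replicate 1 a pair at sug had the opposite order, with signals of 109 and 112. At bigmax the pair was 753 and 127, and at the first start of sug 624 and 329.

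Some strong replicate summits had no pooled summit within 100 bp. At cbt, 1652 bp upstream, replicate 1 had a summit with a signal of 1225 (rank 112), and 1651 bp upstream replicate 3 had one with 1238 (rank 74); the nearest pooled summit was 221 and 220 bp away. At Mondo, 22 bp downstream of the outermost start, replicate 3 had a summit with a signal of 386 (rank 961), 224 bp from the nearest pooled summit. Of the 5723 highest summits of each replicate, 218 (3.81%) in replicate 1 and 296 (5.17%) in replicate 3 were of this kind.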
